A study of Mus musculus with 22 samples.

Results

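The genes described here are those of the unfolded protein response of the endoplasmic reticulum and of the heat shock response: 35 genes, looked up by the gene name printed in the array files among 27670 gene names. Hsp90b1 was also accepted under its older name Tra1. The rule found 32 of the 35, which were 23 genes of the endoplasmic reticulum, 7 cytosolic genes and 2 mitochondrial genes. Sel1l and Hsph1 were on the array only under older names (Sel1h and Hsp110); their values are given apart and are not counted among the 32. Hspa1b was not analysed here.

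Messenger RNA was measured on 22 Agilent one-colour arrays of whole ileum or colon from male C57BL/6 mice on a chow diet. The groups were aged colon of SIRT1 iKO mice (n = 4) and of flox controls (n = 3), aged ileum of iKO (n = 4) and flox mice (n = 3), and young ileum of iKO (n = 4) and flox mice (n = 4). Aged mice were 24 months old and young mice 6 to 8 weeks old. The labels do not spell out iKO, do not name the driver or the deleted part of Sirt1, and do not tie a colon sample to an ileum sample by mouse. A level is the log2 signal of a gene's brightest probe minus the 75th percentile of its array, so that 0 is the signal that 75% of the spots of that array did not exceed. Levels of different probes were not set against each other.

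Proteins that enter the endoplasmic reticulum are folded there by chaperones of the Hsp70 and Hsp90 families, by the lectins calnexin and calreticulin, and by protein disulfide isomerases. When folding falls behind, the sensors IRE1 (Ern1), PERK and ATF6 switch on chaperone genes through XBP1 and ATF6, and stress genes such as Ddit3, Trib3 and Chac1 through ATF4. Heat shock factor 1 (Hsf1) does the same for the cytosol, where its best known targets are Hspa1a and its relatives. In the gut, secretory cells such as Paneth, goblet and plasma cells carry a heavy folding load and are known for high levels of these chaperones.

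The response elements of these pathways are short. They are shown here because the members that differed between tissues in iKO mice, described later, included every member that holds the element known as ERSE. Pdia6 and Hsp90b1 lost that call under quantile normalization. Of the 35 genes, 31 had a promoter sequence from RefSeq (build GRCm38.p6), and the 250 bases before the start were searched on both strands, also where matches overlap. ERSE, the binding site of ATF6 with NF-Y, was spelled CCAAT, then 9 bases of any kind, then CCACG, and was in 0.113% of 32851 promoters. It was found in 8 members, 9 times. The fixed letters are in capitals.
Hspa5, at chr2:34772025-34772043, plus strand: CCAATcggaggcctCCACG
Hsp90b1, at chr10:86705638-86705656, minus strand: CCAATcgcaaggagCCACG
Hsp90b1, at chr10:86705533-86705551, plus strand: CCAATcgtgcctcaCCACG
Calr, at chr8:84847075-84847093, plus strand: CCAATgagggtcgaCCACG
Canx, at chr11:50325800-50325818, minus strand: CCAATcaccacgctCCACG
Creld2, at chr15:88819520-88819538, minus strand: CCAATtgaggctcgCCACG
Dnajc3, at chr14:118937827-118937845, plus strand: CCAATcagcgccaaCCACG
Pdia6, at chr12:17266491-17266509, plus strand: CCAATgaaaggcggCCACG
Syvn1, at chr19:6046532-6046550, plus strand: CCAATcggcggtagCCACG

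Herpud1, which helps to send misfolded proteins to degradation, held the shorter form ERSE-II (ATTGG, 1 base of any kind, then CCACG; in 0.0304% of promoters) at chr8:94386377-94386387. The element UPRE (TGACGTGG, in 0.563% of promoters) was in none of the members' windows. A heat shock element, spelled GAA, TTC and GAA with 2 bases of any kind between them and in 0.466% of promoters, was in Hspd1 and Hspe1, which encode the 2 parts of the mitochondrial chaperonin and start in opposite directions from a shared stretch. Matches on the plus and minus strand overlapped there; the plus strand one lay at chr1:55088064-55088076.
Hspd1 and Hspe1, heat shock element: GAAccTTCcgGAA
The letters TTGCATCA, a form of the amino acid response element bound by ATF4 with partner proteins, were in 0.791% of promoters and in those of Chac1 and Herpud1. The form known from Ddit3 (TGATGNAAT, 0.816%) was in no member's window. The whole 250 bases are printed for Hspa5, the central chaperone, at chr2:34771840-34772089 and for Chac1, the member with the largest difference between genotypes, at chr2:119350992-119351241, both on the plus strand, with the fixed letters of matches in capitals.
Hspa5: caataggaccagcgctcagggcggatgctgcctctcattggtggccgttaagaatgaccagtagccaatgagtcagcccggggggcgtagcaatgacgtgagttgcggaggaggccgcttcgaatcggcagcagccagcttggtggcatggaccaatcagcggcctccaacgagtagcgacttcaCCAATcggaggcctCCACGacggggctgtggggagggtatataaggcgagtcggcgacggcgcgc
Chac1: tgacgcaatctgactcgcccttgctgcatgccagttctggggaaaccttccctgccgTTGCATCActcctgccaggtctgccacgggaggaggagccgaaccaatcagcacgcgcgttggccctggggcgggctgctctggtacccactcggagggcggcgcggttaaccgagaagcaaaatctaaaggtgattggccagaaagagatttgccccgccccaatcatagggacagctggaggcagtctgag

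Between 49.8% and 61.5% of spots were well above background on the ileum arrays and between 70.4% and 79.7% on the colon arrays. All 32 members were well above background on every array with a value, none was saturated, and all were tested in every comparison; 13 had 1 probe and 19 had several. One spot, Dnaja1 on aged colon iKO array 2, was left out as uneven, and that gene was fitted without it. Sirt1, the targeted gene, was at 0.28, 0.32, 0.30 and 0.39 in aged iKO ileum, against 0.59, 1.09 and 0.78 in aged flox ileum, and at 0.41, 0.59, 0.65 and 0.34 in iKO colon, against 0.79, 0.79 and 0.76 in flox colon. It was at 0.64 to 0.75 in young iKO ileum and 0.60 to 1.19 in young flox ileum. The difference of -0.50 ± 0.13 (SE) in aged ileum did not pass (limma adjusted p = 0.177), and whether the probe lies in the deleted part is not known. Ileum and colon arrays were scanned as separate runs on separate slides, so tissue and run cannot be told apart. Young ileum arrays sat at positions 1 and 2 of their slides and aged ones at 3 and 4, so age and position cannot be told apart either. In young ileum and in colon the genotype coincided with the position. Every array was a sample of whole tissue, in which fewer cells of a type and less RNA per cell cannot be told apart.

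**Figure D1:**
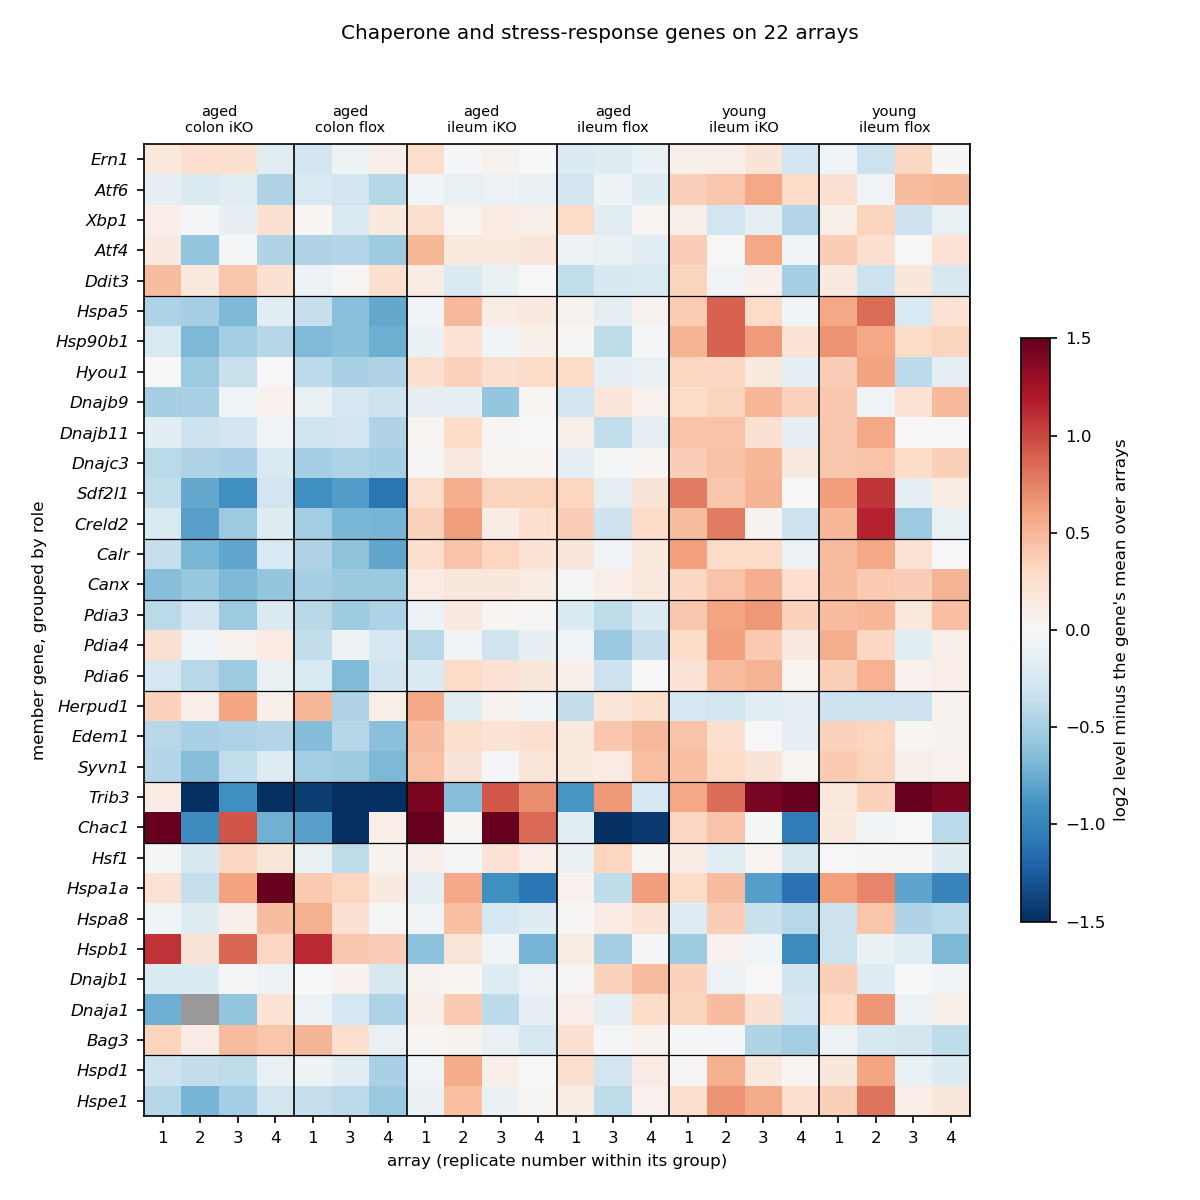
Each column is 1 of the 22 arrays, named by its replicate number, and each row is 1 of the 32 members, grouped by role; colour is the log2 level minus the gene's mean over the arrays, with the scale ending at 1.5 either way and the array without a value in grey. Chaperones of the endoplasmic reticulum such as Canx, Calr and Sdf2l1 were low on all 7 colon arrays, while Trib3, Chac1 and Hspa1a varied within groups.

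The arrays of 1 group were unlike each other for a part of the members, which adds to the error of each comparison. In young ileum, replicates 1 and 2 of both genotypes lay on slides 1 and 2, and replicates 3 and 4 on slides 3 and 4. Hspa1a, the heat-inducible Hsp70 of the cytosol, was at 1.48 and 1.66 on young iKO replicates 1 and 2, against 0.37 and 0.10 on replicates 3 and 4. In young flox ileum it was at 1.82 and 1.93, against 0.41 and 0.22. Its probe may also read Hspa1b, a near-identical copy, so that the 2 genes cannot be told apart.

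Creld2, a chaperone-like protein of the endoplasmic reticulum, was at 5.11 and 5.42 against 4.70 and 4.33 on these young iKO arrays. On the young flox arrays it was at 5.14 and 5.79 against 4.10 and 4.52. Hspa5 (BiP), the main Hsp70 of the endoplasmic reticulum, was at 5.97 and 6.48 against 5.89 and 5.55 in iKO and at 6.17 and 6.43 against 5.36 and 5.81 in flox. Cytosolic and endoplasmic reticulum chaperones were thus high on the same young arrays. In both genotypes 11 of the 32 members (34.4%) lay higher on slides 1 and 2 than on slides 3 and 4 without overlap, against 6.79% of all 15488 genes tested. These were Bag3, Calr, Creld2, Dnaja1, Dnajb11, Edem1, Hspa1a, Hspa5, Hspa8, Hyou1 and Syvn1. Trib3 alone ran the other way (3.12%, against 6.90% of all genes). Hsph1, the Hsp110 nucleotide exchange factor that was read under its older name, was at 3.03 and 4.63 against 2.43 and 2.23 in young iKO ileum, and at 3.22 and 4.76 against 1.83 and 2.29 in young flox ileum. This split was noticed in the data, so the shares of members and of all genes describe it and are not a test. In young ileum slide and replicate number cannot be told apart.

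In aged ileum Hspa1a was at 1.07, 1.78, 0.29 and 0.12 on aged iKO replicates 1 to 4, against 1.26, 0.83 and 1.83 on aged flox replicates 1, 3 and 4. Aged iKO replicates 1 and 4, at 1.07 and 0.12, shared slide 4. Aged flox replicates 1 and 4, at 1.26 and 1.83, shared slide 3 with young flox replicate 3 and young iKO replicate 4, at 0.41 and 0.10. In the colon Hspa1a was at 1.42, 0.86, 1.80 and 2.78 in iKO, against 1.60, 1.53 and 1.34 in flox.

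**Figure D2:**
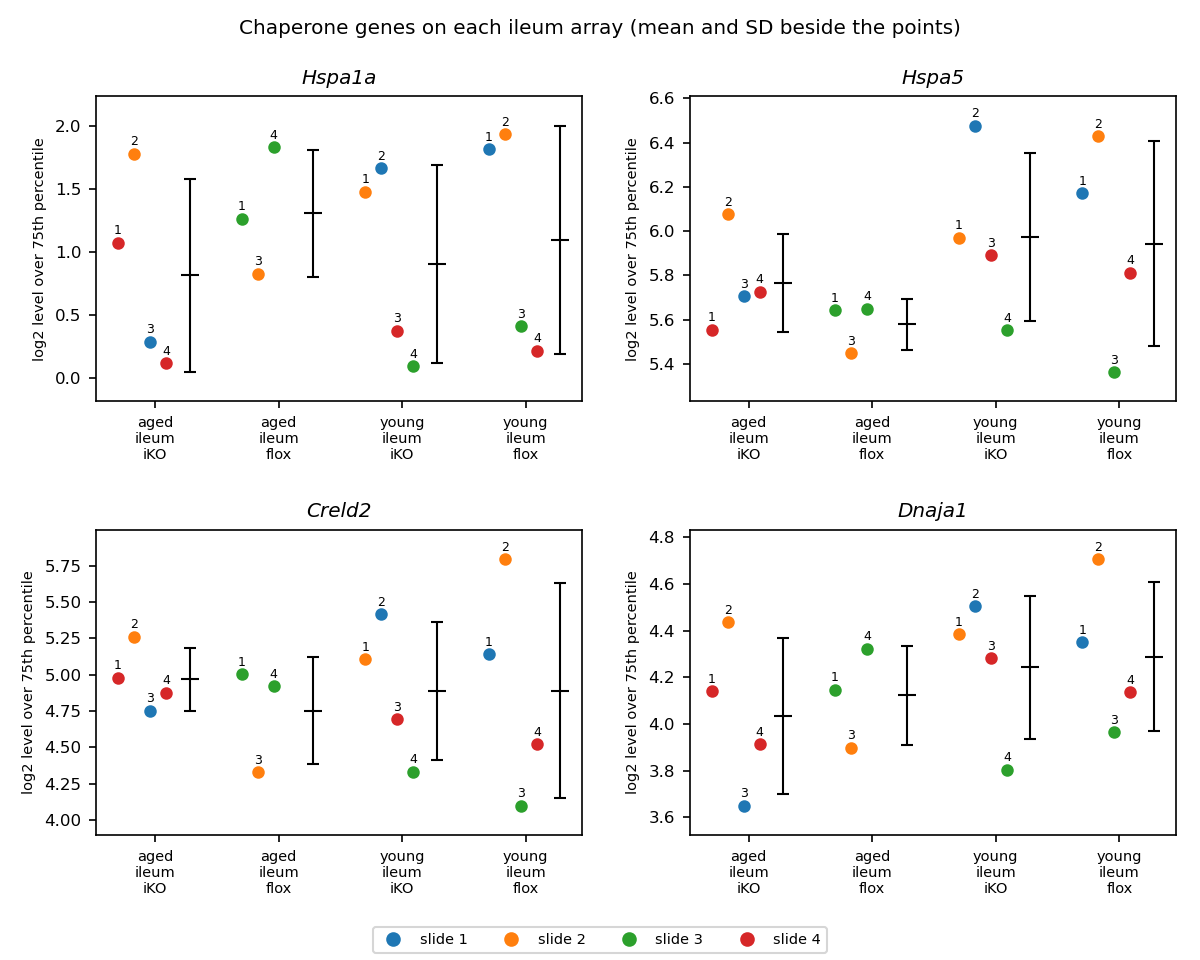
Points are log2 levels of Hspa1a, Hspa5, Creld2 and Dnaja1 on each ileum array over the array's 75th percentile, numbered by replicate and coloured by slide, with the group's mean and SD beside them. Within each genotype, young replicates 1 and 2 lie above replicates 3 and 4 in all 4 panels.

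The comparison of genotypes asks whether loss of SIRT1 changed these genes. No member passed in any tissue or age. In young ileum 0 of 32 members passed at an adjusted p under 0.05 in limma (0 at an unadjusted p under 0.05), where 0.0452% of all genes tested passed (0.0387% higher and 0.00646% lower). In aged ileum 0 of 32 passed (3 at an unadjusted p under 0.05), against 0.168% of all genes (0.116% higher and 0.0517% lower). In aged colon 0 of 32 passed (1 at an unadjusted p under 0.05), against 0.112% (0.0919% higher and 0.0204% lower). The comparisons of genotypes and of ages or tissues share the aged ileum arrays, so their values are not independent of each other.

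In young ileum the members differed little between genotypes: the differences ran from -0.20 to 0.16, with a median of 0.03 for the 23 endoplasmic reticulum members, 15 of them positive. The smallest p belonged to Xbp1, the transcription factor whose messenger RNA is spliced by IRE1, at 2.45, 2.09, 2.24 and 1.93 in iKO, against 2.46, 2.70, 2.06 and 2.26 in flox (difference -0.20 ± 0.15 SE; adjusted p = 0.999). The groups overlapped, and its probe does not separate the spliced from the unspliced form. For Pdia3, Atf6, Pdia4 and Canx, next by p, the 95% intervals of the difference were -0.11 to 0.32, -0.13 to 0.37, -0.19 to 0.51 and -0.22 to 0.11. Within slides the median difference of the endoplasmic reticulum members was 0.03, -0.03, -0.07 and 0.17 on slides 1 to 4.

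In aged ileum Chac1 showed the largest difference of any member between genotypes. Chac1, a glutathione-degrading enzyme induced by ATF4 (probe at chr2:119095103-119095162, build mm7), was at 2.60, -0.06, 1.58 and 0.75 in aged iKO ileum, against -0.27, -1.79 and -1.53 in aged flox ileum. Every iKO array lay above every flox array, and the iKO arrays spread over 2.66 log2 units. The difference was 2.41 ± 0.55 (SE), or 5.33-fold, with a 95% interval from 1.24 to 3.59, and did not pass (limma adjusted p = 0.127). With array weights it was 2.55 and passed at an adjusted p of 0.00907, a setting under which 926 of all genes passed, against 26; over the 27 settings run the adjusted p ran from 0.00907 to 0.667 and the difference from 1.95 to 2.88. On slide 2, which alone held both aged genotypes, the difference was 1.73.

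Atf4, the transcription factor upstream of Chac1, was at 2.26, 1.91, 1.91 and 1.94 in aged iKO ileum, against 1.69, 1.67 and 1.60 in aged flox ileum (difference 0.35 ± 0.15; adjusted p = 0.372). Trib3, a pseudokinase induced by ATF4 and CHOP, was at 1.10, -0.95, 0.62 and 0.39 in iKO, against -1.19, 0.33 and -0.57 in flox. Ddit3, which encodes CHOP, was at 0.22, -0.10, 0.01 and 0.12 in iKO, against -0.25, -0.13 and -0.11 in flox. Aged iKO replicate 1 was the highest of its group for all 4 of these genes and replicate 2 the lowest for Chac1, Trib3 and Ddit3. In young ileum Chac1 was at 0.21, 0.33, -0.12 and -1.15 in iKO, against 0.05, -0.15, -0.10 and -0.50 in flox. The difference of the genotype effects between ages, 2.42 ± 0.74, did not pass (limma adjusted p = 1).

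Pdia3 (ERp57), the disulfide isomerase that works with calnexin and calreticulin, was at 4.21, 4.44, 4.33 and 4.32 in aged iKO ileum, against 4.10, 3.92 and 4.09 in aged flox ileum (difference 0.29 ± 0.11; adjusted p = 0.319). The groups did not overlap. Dnajb1, the Hsp40 partner of cytosolic Hsp70, was at 4.72, 4.71, 4.48 and 4.58 in iKO, against 4.69, 5.02 and 5.14 in flox (difference -0.33 ± 0.16; adjusted p = 0.448), with overlap. Ern1, which encodes IRE1, was at -1.72, -2.01, -1.93 and -1.98 in iKO, against -2.19, -2.16 and -2.08 in flox (0.23 ± 0.14; adjusted p = 0.543). Atf4, Calr, Chac1, Ddit3, Ern1 and Pdia3 were higher on every aged iKO than on every aged flox array, 6 of 32 members, where 8.36% of all genes tested were. The median difference of the endoplasmic reticulum members was 0.20, with 20 of 23 positive, and that of the 9 cytosolic and mitochondrial members was -0.13, beside a median of 0.02 over all genes. Within slide 2 the endoplasmic reticulum median was 0.25 and Trib3 differed by -1.29. The cytosolic and mitochondrial median there was 0.54, opposite in sign to the -0.13 over all aged ileum arrays. The lean over all aged ileum arrays was known from earlier results of these data when the members were chosen.

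In aged ileum the 10 Paneth cell markers measured summed to 2115 to 2512 times the 75th percentile in iKO and 1893 to 2344 in flox, and the 10 fibroblast markers to 48.2 to 77.8 in iKO and 71.2 to 94.0 in flox. Both sums overlapped between genotypes. Still, 10 of 10 Paneth markers had positive differences (median 0.315) and 0 of 10 fibroblast markers did (median -0.50). At an unadjusted p under 0.05 in limma were 3 of the Paneth and 5 of the fibroblast markers. Of these markers 1 passed: Col6a2, a collagen chain, fell by 0.81 (adjusted p = 0.0111). All of these markers were well above background on every aged ileum array, and their part in the members' differences was not tested.

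In aged colon Pdia4, a further disulfide isomerase, had the smallest p: it was at 1.53, 1.23, 1.35 and 1.41 in iKO, against 0.94, 1.22 and 1.05 in flox (difference 0.31 ± 0.12; adjusted p = 0.6). The groups did not overlap. Sdf2l1, a partner of BiP in the endoplasmic reticulum, was at 1.78, 1.38, 1.23 and 1.86 in iKO, against 1.23, 1.31 and 1.06 in flox (0.36 ± 0.18; adjusted p = 0.764). Chac1 was at 2.20, -1.04, 0.85 and -0.81 in iKO colon, against -0.91, -2.29 and 0.0015 in flox colon (1.36 ± 0.89; adjusted p = 0.865). Replicates 1 and 3 were the highest of the iKO group for Chac1, Atf4 and Trib3, and for Chac1 in aged iKO ileum too; no label ties the colon to the ileum arrays by mouse. Ddit3 differed by 0.26 ± 0.13 (adjusted p = 0.77) and Hsp90b1 by 0.21 ± 0.13 (adjusted p = 0.831). The endoplasmic reticulum members had a median difference of 0.17, with 21 of 23 positive, and the cytosolic and mitochondrial ones of -0.05. Within slides 6, 7 and 8 the endoplasmic reticulum median was 0.16, 0.02 and 0.20. Of the secretory cells, Paneth markers were mixed: 6 of 9 tested were positive, and none passed (3 at an unadjusted p under 0.05 in limma). All 10 Paneth markers summed to 25.6 to 203 times the 75th percentile in iKO colon and 14.2 to 27.2 in flox colon, with overlap. Goblet, plasma and B cell, and acinar markers leaned the same way as the members. The 9 goblet markers summed to 1470 to 1752 times the 75th percentile in iKO colon and 1041 to 1260 in flox colon, without overlap, and 9 of 9 had positive differences. The 13 plasma and B cell markers summed to 130 to 170 in iKO and 107 to 120 in flox, without overlap, with 11 of 13 positive. Of 13 pancreatic acinar markers, 11 were tested and 10 of these were positive. Only 10 of the 13 were well above background on flox colon replicates 1 and 3. Not every tested marker was thus above it on all flox arrays, and the filter favoured positive signs there. All 13 summed to 24.7, 15.7, 28.7 and 82.8 in iKO colon, against 17.9, 13.8 and 18.5 in flox colon. No marker of the goblet, plasma and B cell or acinar lists passed (4, 6 and 2 at an unadjusted p under 0.05 in limma). Replicate 4, the highest iKO colon array for the acinar markers, was also the highest iKO colon array for Hspa5, Sdf2l1, Calr, Creld2 and Syvn1. Other endoplasmic reticulum members were highest elsewhere: Pdia4, Chac1, Atf4, Trib3, Ddit3 and Edem1 on replicate 1 and Canx on replicate 2. Without replicate 4 the median difference of the endoplasmic reticulum members was 0.11. The part of these cells in the members' differences was not tested. No member passed for a difference of the genotype effect between colon and ileum (0 at an unadjusted p under 0.05 in limma), where 0.0356% of all genes did (0.0255% higher and 0.0102% lower). The smallest p there was that of Dnajb1, with an interval of -0.12 to 0.62.

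**Figure D3:**
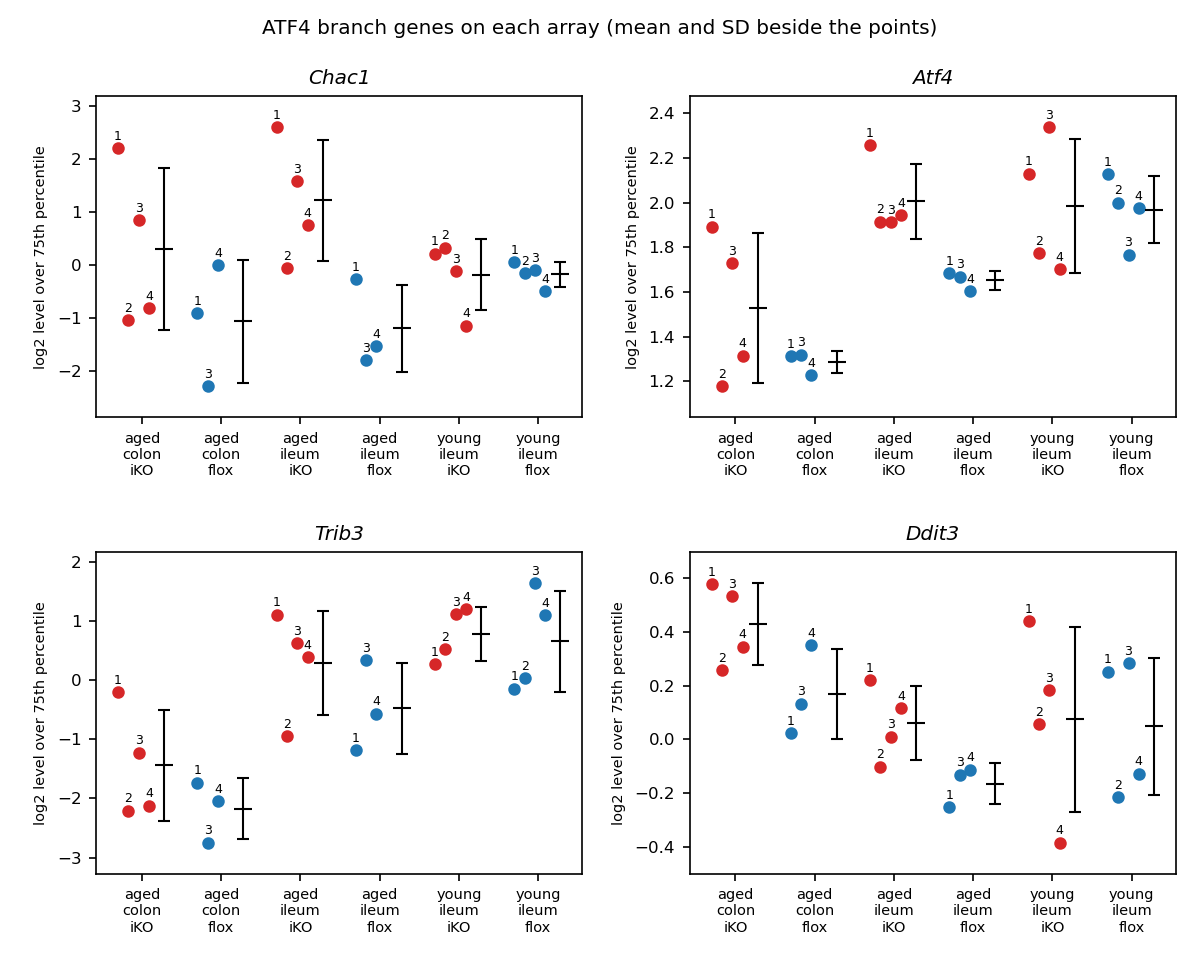
Points are log2 levels of Chac1, Atf4, Trib3 and Ddit3 on each array over the array's 75th percentile, numbered by replicate, red for iKO and blue for flox, with the group's mean and SD beside them. Chac1 lies above every aged flox ileum array on all 4 aged iKO ileum arrays, and its iKO arrays are spread widely in both tissues.

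The comparison of ages asks which members differed between 24-month-old and young mice. In the ileum of both genotypes a subset of the endoplasmic reticulum members, folding genes and the sensor Atf6, fell with age, and no member rose. In iKO ileum 6 of 32 members fell and 0 rose, where 5.58% of all genes tested fell, 5.16% rose and 10.7% changed in all. In flox ileum 5 of 32 fell and 0 rose, where 5.36% of all genes fell, 3.16% rose and 8.52% changed in all. Pdia3, Hsp90b1, Atf6 and Dnajc3 fell in both genotypes, Dnajb9 and Pdia4 passed in iKO and Canx passed in flox. All 7 belong to the endoplasmic reticulum, and 0 of the 9 cytosolic and mitochondrial members passed in either genotype.

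Pdia3 was at 4.21, 4.44, 4.33 and 4.32 in aged iKO ileum, against 4.71, 4.89, 4.95 and 4.65 in young iKO ileum, and at 4.10, 3.92 and 4.09 in aged flox ileum, against 4.77, 4.80, 4.45 and 4.75 in young flox ileum. Every aged array lay below every young one. The difference was -0.47 ± 0.10 in iKO (SE; adjusted p = 0.0121) and -0.66 ± 0.11 in flox (adjusted p = 0.00368). Hsp90b1 (GRP94), the Hsp90 of the endoplasmic reticulum, was at 5.75, 6.07, 5.81 and 5.94 in aged iKO, against 6.36, 6.74, 6.49 and 6.06 in young iKO, and at 5.87, 5.48 and 5.84 in aged flox, against 6.52, 6.43, 6.12 and 6.18 in young flox. It fell by 0.52 (adjusted p = 0.0413), with young iKO replicate 4 just below aged iKO replicate 2, and by 0.58 (adjusted p = 0.0406) without overlap in flox.

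Atf6, the sensor that is cut in the Golgi to release a transcription factor, was at 1.10, 1.03, 1.05 and 1.03 in aged iKO, against 1.5, 1.56, 1.73 and 1.43 in young iKO. In flox ileum it was at 0.86, 1.07 and 0.96 in aged mice, against 1.38, 1.09, 1.61 and 1.65 in young mice. The aged arrays lay below the young ones in both genotypes, with differences of -0.50 ± 0.11 (adjusted p = 0.0179) in iKO and -0.47 ± 0.12 (adjusted p = 0.0355) in flox. Dnajc3 (p58IPK), a co-chaperone of BiP, was at 2.90, 3.03, 2.93 and 2.93 in aged iKO, against 3.26, 3.33, 3.39 and 3.02 in young iKO, and at 2.76, 2.88 and 2.92 in aged flox, against 3.30, 3.32, 3.17 and 3.25 in young flox. It fell by 0.30 in iKO (adjusted p = 0.0401), where young replicate 4 overlapped the aged arrays, and by 0.40 in flox (adjusted p = 0.0197).

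Dnajb9 (ERdj4), a further co-chaperone of BiP, was at 0.97, 0.99, 0.54 and 1.15 in aged iKO, against 1.40, 1.45, 1.61 and 1.47 in young iKO (-0.57 ± 0.15; adjusted p = 0.0294). In flox its difference was -0.28 ± 0.16 (adjusted p = 0.284). Pdia4 was at 0.88, 1.25, 0.99 and 1.17 in aged iKO, against 1.57, 1.91, 1.68 and 1.43 in young iKO (-0.57 ± 0.16; adjusted p = 0.0394), and differed by -0.52 ± 0.17 in flox (adjusted p = 0.081). Canx (calnexin), a membrane lectin chaperone, was at 5.08, 5.19 and 5.23 in aged flox, against 5.57, 5.49, 5.46 and 5.60 in young flox (-0.36 ± 0.08; adjusted p = 0.0203). In iKO it was at 5.21, 5.26, 5.26 and 5.20 in aged mice, against 5.40, 5.52, 5.64 and 5.34 in young mice (-0.24 ± 0.08; adjusted p = 0.0583). The groups of these 3 genes did not overlap where the gene passed. No member passed for a difference of the age effect between genotypes (0 of 32, with 0% of all genes, and for Chac1 alone an unadjusted p under 0.05).

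BiP itself did not pass in the ageing comparisons. Hspa5 was at 5.55, 6.08, 5.71 and 5.73 in aged iKO, against 5.97, 6.48, 5.89 and 5.55 in young iKO (-0.21 ± 0.22; adjusted p = 0.587), and at 5.64, 5.45 and 5.65 in aged flox, against 6.17, 6.43, 5.36 and 5.81 in young flox (-0.36 ± 0.24; adjusted p = 0.363). The young arrays spread over more than the difference. The median difference of the endoplasmic reticulum members was -0.05 in iKO, with 14 of 23 negative, and -0.32 in flox, with 19 of 23 negative. That of the cytosolic and mitochondrial members was -0.03 and 0.17, and that of all genes -0.02 in each. Of the genes lower with age in iKO and in flox, 55.8% and 58.1% over all genes were lower in the other genotype as well, against 4 of 6 and 4 of 5 members.

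Slides that held both ages gave the same direction for each gene that passed: the 5 flox members were lower in aged mice on 2 of 2 slides, by 0.02 to 0.96, and the 6 iKO members on 3 of 3, by 0.23 to 0.93. The members were called on these same arrays, so their direction within slides was in part given in advance and is not a separate test. Many of these calls rested on the full set of arrays. In flox 1 member passed without aged flox replicate 1, without young flox replicate 1 or without young flox replicate 4, 2 without aged flox replicate 4, and 3 without aged flox replicate 3 or aged iKO replicate 3 or 4. In iKO 1 passed without young iKO replicate 3, 2 without aged iKO replicate 1 or 3 or young iKO replicate 2, and 3 without aged flox replicate 4, aged iKO replicate 4, young flox replicate 4 or young iKO replicate 1. Under quantile normalization 2 passed in iKO and 1 in flox. Pdia3 passed in flox under all 26 alternatives, and in iKO under 25 of 26, the exception being quantile normalization. Other probes of Atf6, Hsp90b1, Dnajb9, Dnajc3 and Canx, all well above background, were lower too, but several did not pass. That of Atf6 did not (limma adjusted p = 0.154 in flox and 0.1 in iKO), nor that of Hsp90b1 (0.146 and 0.176). Those of Dnajb9 gave 0.0565 and 0.0665 in iKO. Those of Dnajc3 ran from 0.0354 to 0.114 in flox and from 0.0281 to 0.113 in iKO. In flox those of Canx gave 0.0268 and 0.0548.

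Markers of other cell types were measured beside these genes. The 10 Paneth markers summed to 2115 to 2512 in aged and 2591 to 3382 in young iKO ileum, and to 1893 to 2344 in aged and 2338 to 2842 in young flox ileum. In flox 3 of 10 fell, among them the defensin Defa23 by 0.48 (adjusted p = 0.0145), and in iKO 0 fell and 1 rose, the secreted phospholipase Pla2g2a, by 0.78 (adjusted p = 0.0293). Goblet cell markers, 9 genes of mucus-secreting cells, summed to 1367 to 1508 in aged and 1383 to 1755 in young iKO ileum, and to 1295 to 1466 and 1390 to 1866 in flox. None of the 9 passed. The summed plasma and B cell markers overlapped between ages in both genotypes, and 1 of 12 fell in iKO. Of 12 enterocyte markers, 0 passed in iKO (median difference -0.31) and 1 fell in flox (median -0.24, with 0 of 12 positive). Enterocyte sums were 1165 to 1524 in aged and 1527 to 1979 in young iKO ileum, and 1127 to 1610 in aged and 1530 to 1908 in young flox ileum. Of 10 fibroblast markers, 2 fell in iKO and 2 rose in flox. The part of these cells in the members' differences was not tested.

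**Figure D4:**
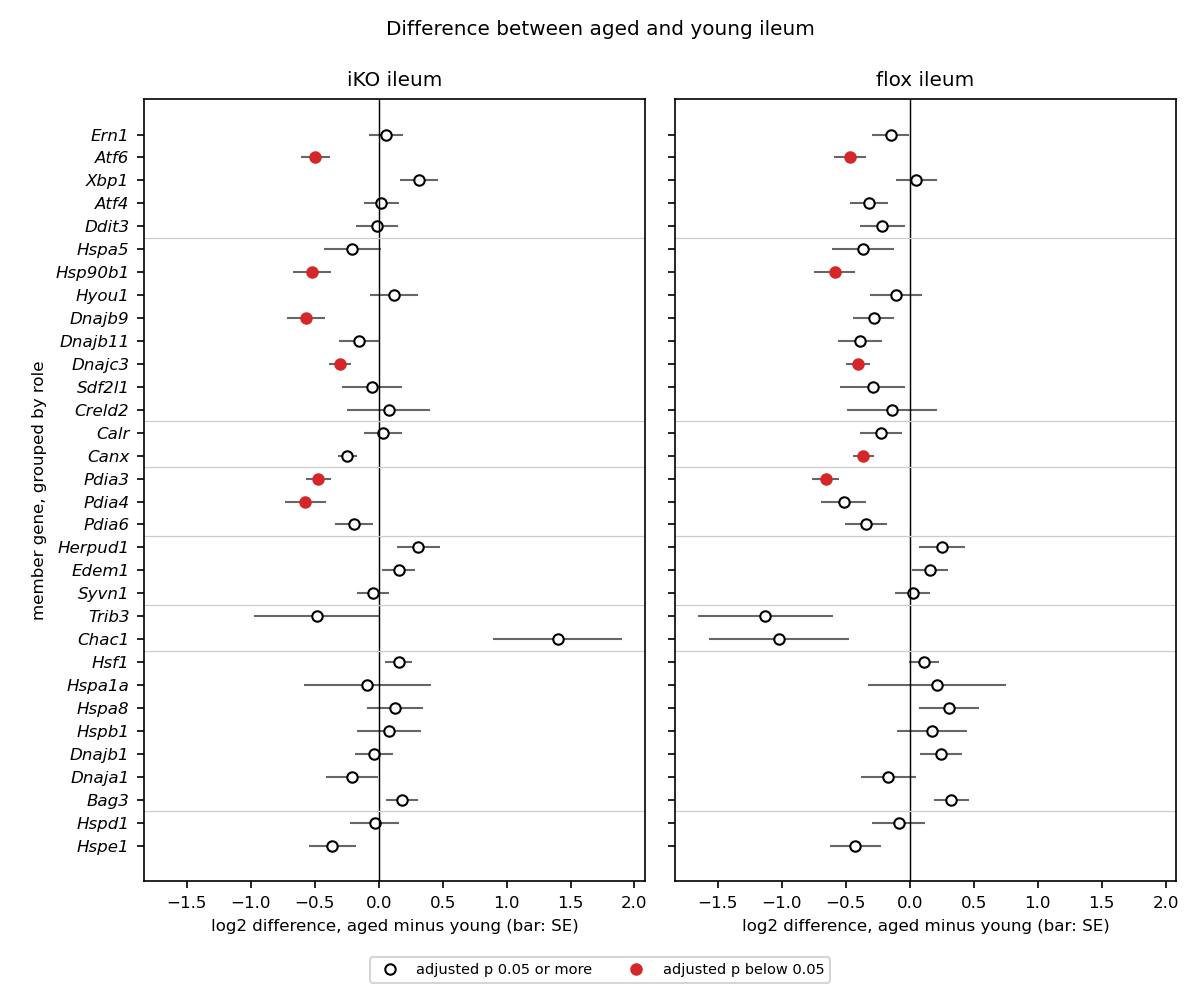
Points are log2 differences between aged and young ileum with SE bars for the 32 members, in iKO on the left and flox on the right; filled points passed at an adjusted p under 0.05. The filled points, 6 in iKO and 5 in flox, all lie below 0 and all belong to the endoplasmic reticulum.

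The comparison of tissues asks how colon differed from ileum in aged mice. In iKO 17 of 32 members were lower in the colon and 3 higher, where 19.4% of all genes tested were lower and 24.2% higher (43.6% changed). In flox 10 of 32 were lower and 0 higher, where 13.7% of all genes were lower and 19.1% higher (32.9% changed). The members lower in colon included 15 of the 23 endoplasmic reticulum members in iKO and 10 of 23 in flox. Among them were 7 of the 8 lumenal chaperones in iKO and 6 of 8 in flox, and both lectin chaperones in each genotype. The 10 members lower in flox were all lower in iKO as well; over all genes, 85.9% of those lower in flox were lower in iKO, and 60.9% of those lower in iKO were lower in flox, against 58.8% of members.

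Canx (probe at chr11:50251302-50251361, build mm7) was at 4.45, 4.52, 4.41 and 4.51 in iKO colon, against 5.21, 5.26, 5.26 and 5.20 in aged iKO ileum, and at 4.59, 4.53 and 4.54 in flox colon, against 5.08, 5.19 and 5.23 in aged flox ileum. The groups stood apart by more than the spread within any of them, with differences of -0.76 ± 0.06 (0.592-fold; adjusted p = 4.44e-06) in iKO and -0.61 ± 0.07 (0.654-fold; adjusted p = 0.000119) in flox. Calr (calreticulin), its partner in the lumen, was at 3.99, 3.64, 3.55 and 4.10 in iKO colon, against 4.58, 4.76, 4.65 and 4.53 in iKO ileum, and at 3.87, 3.72 and 3.55 in flox colon, against 4.51, 4.27 and 4.48 in flox ileum. It fell by 0.81 in iKO (adjusted p = 0.000386) and by 0.70 in flox (adjusted p = 0.00392).

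Edem1, which hands misfolded glycoproteins over to degradation, was at 2.0, 1.93, 1.95 and 1.98 in iKO colon, against 2.88, 2.69, 2.62 and 2.65 in iKO ileum, and at 1.76, 1.99 and 1.79 in flox colon, against 2.57, 2.82 and 2.91 in flox ileum. The differences were -0.74 ± 0.09 (adjusted p = 7.04e-05) and -0.92 ± 0.11 (adjusted p = 9.36e-05). Syvn1 (HRD1), the ubiquitin ligase of that pathway, was at 4.09, 3.89, 4.16 and 4.33 in iKO colon, against 4.97, 4.72, 4.51 and 4.71 in iKO ileum, and at 4.01, 3.99 and 3.85 in flox colon, against 4.68, 4.65 and 4.98 in flox ileum. It was lower by 0.61 and 0.82 log2 units, without overlap. Sel1l, its adaptor, read under its older name, differed by -0.34 ± 0.12 in iKO (adjusted p = 0.0415) and -0.34 ± 0.14 in flox (adjusted p = 0.0913). Herpud1 differed by 0.18 in iKO and 0.02 in flox and passed in neither.

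Among the lumenal chaperones, Sdf2l1 was at 1.78, 1.38, 1.23 and 1.86 in iKO colon, against 2.41, 2.69, 2.48 and 2.48 in iKO ileum, and at 1.23, 1.31 and 1.06 in flox colon, against 2.47, 2.0 and 2.35 in flox ileum. Its differences, -0.95 ± 0.15 (0.517-fold) in iKO and -1.08 ± 0.17 (0.474-fold) in flox, were the largest of this group. Creld2 was at 4.43, 3.82, 4.10 and 4.46 in iKO colon, against 4.98, 5.26, 4.75 and 4.88 in iKO ileum (-0.77 ± 0.18; adjusted p = 0.00488), and lower by 0.74 in flox (adjusted p = 0.0171). Hspa5 was at 5.13, 5.10, 4.92 and 5.42 in iKO colon, against 5.55, 6.08, 5.71 and 5.73 in iKO ileum, and at 5.25, 4.97 and 4.83 in flox colon, against 5.64, 5.45 and 5.65 in flox ileum. It was lower by 0.62 (adjusted p = 0.00366) and 0.57 (adjusted p = 0.0192) without overlap. Hsp90b1, Dnajc3 and Hyou1, the Hsp70-like exchange factor of BiP, were lower in both genotypes by 0.45 to 0.55 log2 units. The other probe of Hyou1, also well above background, differed by -0.07 in iKO and 0.25 in flox and did not pass, so that its direction in flox depends on the probe. Dnajb11, a further BiP co-chaperone, was lower in iKO (-0.29 ± 0.11; adjusted p = 0.0475). Dnajb9 passed in neither genotype.

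Of the disulfide isomerases, Pdia3 (-0.39 ± 0.09; adjusted p = 0.00366) and Pdia6 (-0.45 ± 0.15; adjusted p = 0.0289) were lower in iKO colon, while Pdia4 was at 1.53, 1.23, 1.35 and 1.41 in iKO colon, against 0.88, 1.25, 0.99 and 1.17 in iKO ileum, and did not pass (0.31 ± 0.12; adjusted p = 0.0641). In flox none of the 3 passed. The transcription factors split in iKO: Atf4 was at 1.89, 1.18, 1.73 and 1.31 in colon, against 2.26, 1.91, 1.91 and 1.94 in ileum (-0.48 ± 0.15; adjusted p = 0.0196). Ddit3 was at 0.58, 0.26, 0.53 and 0.34 in colon, against 0.22, -0.10, 0.01 and 0.12 in ileum, and rose by 0.37 (adjusted p = 0.0146). Trib3 was at -0.20, -2.21, -1.23 and -2.12 in iKO colon, against 1.10, -0.95, 0.62 and 0.39 in iKO ileum (-1.73 ± 0.53; adjusted p = 0.0202), with overlap. In flox colon Trib3 was at -1.73, -2.75 and -2.05, against -1.19, 0.33 and -0.57 in flox ileum (-1.70 ± 0.61; adjusted p = 0.0515). Ern1, Atf6 and Xbp1 passed in neither genotype.

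Of the 9 cytosolic and mitochondrial genes, 2 cytosolic ones were higher and the 2 mitochondrial ones lower in iKO colon, and none passed in flox. Hspb1 (Hsp25), a small heat shock protein also abundant in muscle, was at 2.83, 1.93, 2.60 and 2.05 in iKO colon, against 1.13, 1.93, 1.71 and 1.05 in iKO ileum (0.90 ± 0.27; adjusted p = 0.018), and at 2.87, 2.15 and 2.11 in flox colon, against 1.85, 1.25 and 1.72 in flox ileum (0.77 ± 0.31; adjusted p = 0.078). Bag3, an Hsp70 co-chaperone, was at 2.39, 2.17, 2.53 and 2.47 in iKO colon, against 2.07, 2.11, 1.94 and 1.82 in iKO ileum (0.40 ± 0.13; adjusted p = 0.029). Its other probe differed by -0.19 and did not pass. Hspd1 and Hspe1, whose shared promoter was shown above, were lower in iKO colon by 0.44 (adjusted p = 0.0401) and 0.54 (adjusted p = 0.013) and did not pass in flox. Hsf1, Hspa1a, Hspa8, Dnajb1 and Dnaja1 passed in neither. Hspa8 is one of a family with many near-identical copies, and the array file places its probes on chromosome 5 (build mm7), so its values are uncertain.

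Set against the promoters, the 8 members with an ERSE had a median difference of -0.62 in iKO and -0.59 in flox, and 8 of 8 were lower in iKO and 7 of 8 in flox. Under quantile normalization Pdia6 (limma adjusted p = 0.253) and Hsp90b1 (0.0876) no longer passed in iKO, nor Creld2 in flox (0.0519). The other probes of Pdia6, all well above background, differed by -0.40 (0.0821), -0.13 (0.616) and -0.75 (0.002) in iKO. The other 13 endoplasmic reticulum members with a promoter sequence had medians of -0.29 and -0.21, with 6 of 13 lower and 1 higher in iKO and 2 of 13 lower in flox. With age the members with an ERSE had medians of -0.20 in iKO and -0.35 in flox, and 2 and 3 of 8 fell. Between genotypes 0 of 8 passed in each comparison. Over all genes tested, 19.4% were lower in iKO colon and 13.7% in flox colon, and 5.58% and 5.36% fell with age. The elements were chosen with earlier results of these data known, so the counts describe the windows searched and are no independent support. No test was made of them. Other genes among the 37 promoters with an ERSE were not examined.

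Calls in the tissue comparison that rested on few arrays were those near the threshold. In flox, Creld2, Hspa5 and Hyou1 each lost the call without flox colon replicate 4, aged flox ileum replicate 1 or aged flox ileum replicate 4. Hspa5 lost it also without flox colon replicate 3, and Hyou1 without 5 further arrays: flox colon replicates 1 and 3 and aged iKO ileum replicates 1, 3 and 4 (adjusted p up to 0.142). In iKO, Atf4 and Trib3 lost it without iKO colon replicate 2 or 4 or iKO ileum replicate 1. Hspb1 lost it without iKO colon replicate 1 or 3 or iKO ileum replicate 1 or 4, and Bag3 without iKO colon replicate 1, 3 or 4 or iKO ileum replicate 3 or 4. Pdia6 lost it without iKO colon replicate 2 or 3 or iKO ileum replicate 2, 3 or 4. Hspd1 lost it without flox colon replicate 3, iKO colon replicate 1, 2 or 3 or iKO ileum replicate 2 or 3. Dnajb11 lost it without any of 11 of the 14 arrays, those kept being iKO colon replicate 4 and flox ileum replicates 1 and 3. Canx, Calr, Dnajc3, Edem1, Sdf2l1 and Syvn1 passed in both genotypes under every alternative that tested the gene as a whole. Single probes did not all pass. The other probe of Syvn1, well above background, differed by -0.59 in iKO (limma adjusted p = 0.145) and -0.86 in flox (adjusted p = 0.0893). For Edem1 in iKO, a further probe differed by -0.34 (adjusted p = 0.0784), while another passed.

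Markers of several cell types differed between the tissues. The Paneth markers summed to 25.6 to 203 times the 75th percentile in iKO colon and 2115 to 2512 in iKO ileum, and to 14.2 to 27.2 in flox colon and 1893 to 2344 in flox ileum; 9 and 10 of 10 were lower, Lyz1 (lysozyme) by 5.25 and 5.0 log2 units. At least 8 of the 10 markers were still well above background on each colon array. Enterocyte markers summed to 364 to 417 in iKO colon and 1165 to 1524 in iKO ileum, and to 367 to 530 in flox colon and 1127 to 1610 in flox ileum. Smooth muscle markers summed to 491 to 754 in iKO colon and 306 to 470 in iKO ileum, and to 558 to 662 in flox colon and 420 to 478 in flox ileum, with 7 and 3 of 10 higher. Goblet markers were 1470 to 1752 in iKO colon and 1367 to 1508 in iKO ileum, and 1041 to 1260 and 1295 to 1466 in flox. The 13 plasma and B cell markers had a median difference of -0.24 in iKO, with 1 higher and 1 lower, and of -0.69 in flox, with 2 higher and 5 lower. Those lower in flox included Jchain, the joining chain of secreted antibodies (-1.38; adjusted p = 0.0152), and Mzb1, a plasma cell chaperone of the endoplasmic reticulum (-1.54; adjusted p = 0.0441). Of 10 fibroblast markers, 2 were higher in iKO colon and 4 lower in flox colon. The part of these cells in the members' differences was not tested.

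**Figure D5:**
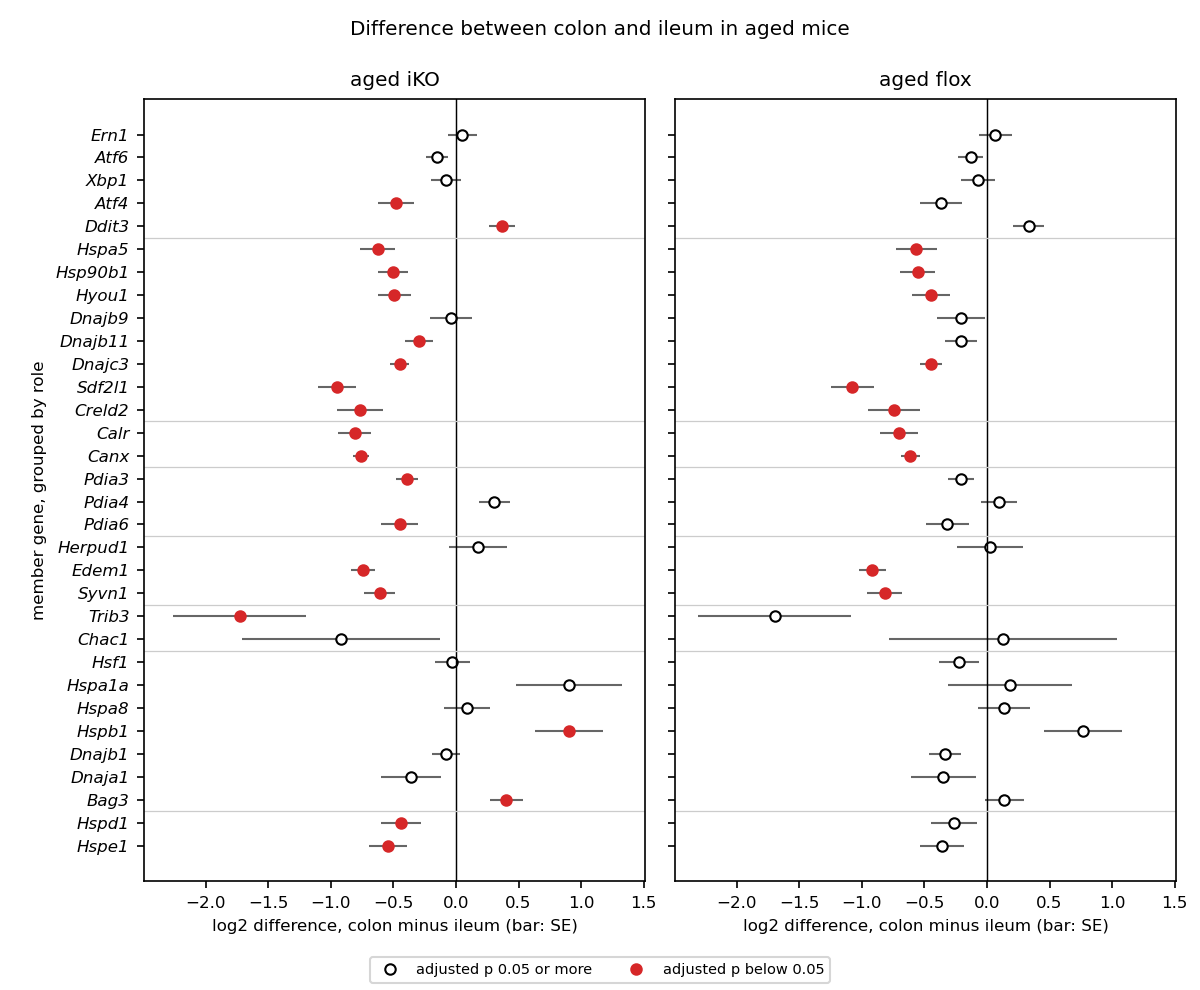
Points are log2 differences between aged colon and aged ileum with SE bars for the 32 members, in iKO on the left and flox on the right; filled points passed at an adjusted p under 0.05. The filled points number 20 in iKO and 10 in flox, and all but Ddit3, Hspb1 and Bag3 in iKO lie below 0.

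Other genes of the same pathways, from lists chosen with earlier results of these data known, gave these counts. Of 46 further genes of the unfolded protein response, 42 were tested in ileum: 3 rose and 2 fell with age in iKO, and 0 rose and 3 fell in flox. Over all genes 5.16% rose and 5.58% fell in iKO, and 3.16% rose and 5.36% fell in flox, so these counts are near the background. Ern2, the IRE1 form of mucosal epithelium, rose by 0.95 in iKO (adjusted p = 0.00132), and Sec61b, part of the channel into the endoplasmic reticulum, fell by 0.66 in flox (adjusted p = 0.0136). Of 44 tested between tissues, 8 were higher and 14 lower in iKO colon, and 9 higher and 12 lower in flox colon, where 24.2% and 19.4% of all genes were higher and lower in iKO and 19.1% and 13.7% in flox. Nupr1, a stress-induced regulator, was higher by 2.33 in iKO colon (adjusted p = 1.83e-05) and 2.47 in flox colon (adjusted p = 7.07e-05), and Ern2 by 1.32 and 1.20. No gene of this list passed between genotypes (2, 7 and 3 at an unadjusted p under 0.05 in young ileum, aged ileum and colon). Nupr1 came nearest, at 0.87 ± 0.17 in aged ileum (adjusted p = 0.0833), followed by Dnajc10, a reductase of the endoplasmic reticulum, at 0.57 ± 0.15 (adjusted p = 0.174).

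Of 44 further heat shock and cytosolic chaperone genes, 41 were tested in ileum: 0 rose and 3 fell with age in iKO, and 0 rose and 4 fell in flox, beside the same shares over all genes (5.58% fell in iKO and 5.36% in flox). Of these, Hspb7 and Hspb6, small heat shock proteins known from muscle, passed in both genotypes. Hspb7 fell by 0.98 in iKO (adjusted p = 0.00389) and 1.09 in flox (adjusted p = 0.00397), and Hspb6 by 0.79 (adjusted p = 0.0103) and 0.66 (adjusted p = 0.0348). The 10 smooth muscle markers summed to 306 to 470 in aged and 364 to 636 in young iKO ileum, and to 420 to 478 and 406 to 531 in flox, with 1 of 10 lower in iKO and 0 in flox; their part in this was not tested. Of 43 tested between tissues, 3 were higher and 4 lower in iKO colon and 4 higher and 1 lower in flox colon, beside 24.2% higher and 19.4% lower over all genes in iKO and 19.1% and 13.7% in flox. Hspb7 was higher by 1.63 in flox colon (adjusted p = 0.000753). No gene of this list passed between genotypes (0, 2 and 2 at an unadjusted p under 0.05).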

How the data were processed

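The deposited intensity values are processed spot signals of Agilent Feature Extraction, version 9.5 per the submitters' processing notes, background-subtracted and detrended array by array and not scaled to each other, per the file headers. The series matrix deposited by the authors holds the same intensities. From these, log2 signals minus each array's 75th percentile were computed here; no log2 values were taken from the authors. Each gene took the values of its brightest probe. It entered a test if all arrays of 1 or more groups showed that probe well above background. Names were updated through a RefSeq gene table. Tests used limma (3.58.1; R 4.3.3) with separate models for the 15 ileum, the 7 colon and the 14 aged arrays, with p-values adjusted (Benjamini and Hochberg) over all genes tested and called under 0.05. The method was tested on simulated data. The source of the replicates is not stated, so p-values measure the spread between these samples, which may be technical, and the number of arrays limits the precision. Members that passed are described in full, and where none passed up to 5 with the smallest p. Members, lists and elements were chosen with earlier results of these data known. Alternatives were another normalization, background correction, filter, probe rule or variance model, slide and replicate number as terms, and each array left out.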

Additional observations from a re-analysis of the deposited data

Results flagged for a closer look

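Over 127 sets of 4 arrays of a group and member, 6 single arrays stood apart from the other 3 of their group by more than Dixon's 95% limit; chance gives about 1 in 20. Atf4 was at 2.26 on aged iKO ileum replicate 1, against 1.91 to 1.94 on the others. Dnajb11 was at 4.68 on aged iKO ileum replicate 2, against 4.41 to 4.44. On young flox ileum arrays, Herpud1 was at 3.92 on replicate 4, against 3.54 to 3.56, and Hsf1 was at 3.42 on the same array, against 3.59 to 3.61. Hspa8 was at 6.87 on young flox replicate 2, against 6.00 to 6.13, and Pdia3 was at 4.45 on young flox replicate 3, against 4.75 to 4.80. Pdia3 fell with age in flox without that array too.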

How the results depend on the processing

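In the genotype comparisons and both interactions 0 members passed under every alternative run, except that Chac1 made 1 in aged ileum with array weights. In flox ageing 2 members passed with the mean over a gene's probes and 1 each with no filter, with only the groups in the contrast, with quantile normalization and with slide as a fixed factor, against 5; leaving out 1 array gave 1 to 5. In iKO ageing 3 passed with the mean over probes, 1 with no filter and 2 with quantile normalization, against 6; leaving out 1 array gave 1 to 7. Between tissues, leaving out 1 array gave 15 to 21 in iKO, against 20, and 7 to 12 in flox, against 10. Slide as a fixed factor could not be fitted there. Under quantile normalization Pdia3, Hsp90b1, Hspe1, Atf4, Pdia6, Hspd1 and Dnajb11 no longer passed in iKO (limma adjusted p from 0.0574 to 0.615). Creld2 (0.0519) and Hyou1 (0.0625) no longer passed in flox under that normalization. The labels do not say whether equal replicate numbers pair samples. Between genotypes, same-numbered residuals correlated at 0.13 to 0.39 in young ileum except replicate 3 (0.06) and at -0.40 for aged ileum replicate 1. Between ages they ran from -0.0044 to 0.44, and between colon and ileum from -0.07 to 0.16. Pairs with different numbers were not computed, so these values cannot tell whether the numbers pair samples. With a replicate block 7 passed in iKO ageing, 6 in flox ageing, 18 and 11 between tissues in iKO and flox, and 0 in each genotype comparison and interaction. Under that block Hsp90b1 no longer passed in flox ageing (adjusted p = 0.0501), nor did Dnajb11 (0.0702) and Hspd1 (0.06) in iKO colon. Single genes reversed with another probe: Hyou1 in flox colon (0.25, not passing), Bag3 in iKO colon (-0.19, not passing) and Hspb1 in iKO colon, where a probe not well above background gave -6.24 and the mean over probes -2.67. The array's annotation places that Hspb1 probe on chromosome 13 and the brightest one on chromosome 5 (build mm7), so it may not read Hspb1. Of the recomputed calls of single members, 861 kept side and direction, 184 no longer passed and 4 reversed. Over all genes the calls also moved: array weights gave 926 in aged ileum, against 26, and 3272 in flox ageing, against 1320, where no filter gave 400 and slide as a fixed factor 475. No filter gave 663 in iKO ageing, against 1663, and 13452 and 10909 between tissues in iKO and flox, against 8561 and 6458. Slide as a fixed factor or a replicate block left 1 in colon, against 22. Nothing here separates tissue from array run or age from slide position.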
